A study of Mus musculus with 6 samples.

Results

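Of the 596 mouse miRNA assays in the table, 10 were for miRNAs of the miR-17-92 cluster and its paralogs. They were chosen by exact name, with no measured value involved: mmu-miR-17, mmu-miR-18a, mmu-miR-19a, mmu-miR-19b, mmu-miR-20a and mmu-miR-92a of the miR-17-92 cluster, mmu-miR-106b, mmu-miR-93 and mmu-miR-25 of the miR-106b-25 cluster, and mmu-miR-20b of the miR-106a-363 cluster (the prefix for mouse is left out below). All 10 were detected in all 6 samples and none was lost to the filter on low values. The samples were whole aortas of female Apoe-/- mice, aged 6 to 8 weeks when the diet began, which had eaten a high-fat diet (HFD) for 12 weeks, holding 0.15% cholesterol, 19.5% casein and, as crude fat, 21%. The 3 EC-Dicerflox mice were VE-Cadherin-CreERT2 Dicer1flox/flox Apoe-/- and the 3 EC-DicerWT littermates were VE-Cadherin-CreERT2 Dicer1WT/WT Apoe-/-, so that both groups carried the Cre transgene and lacked apolipoprotein E. Both received tamoxifen (2 mg per 20 g body weight) on 5 consecutive days, ending a week before the diet, which switches on the Cre recombinase in cells that use the VE-cadherin promoter, mainly endothelial cells (ECs). The cards hold no assay of Dicer1 mRNA, so the deletion itself was not checked here. Dicer was targeted in 1 cell type of the wall, while the RNA came from all of them, and fewer cells of a type cannot be told apart from less RNA per cell.

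MiR-17-92 is a polycistron: a single primary transcript holds several hairpins, Drosha releases them in the nucleus, and Dicer then cuts each hairpin to the mature miRNA. The cluster is known as an oncogenic driver of proliferation that is induced by MYC and E2F factors. In the vessel wall miR-92a is known to restrain angiogenesis and to repress the flow-induced factors KLF2 and KLF4, and miR-17, miR-18a, miR-19a and miR-20a have been studied as regulators of endothelial sprouting. The miR-106b-25 cluster lies in the gene of the replication helicase subunit Mcm7 and repeats part of the same seeds.

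In GRCm38.p6 the RefSeq hairpins of miR-17-92 lie at chr14:115043671-115044506 on the plus strand, where 6 hairpins span 836 bases and the annotated host transcript Mir17hg overlaps only part of them. The 3 hairpins of miR-106b-25 lie within the bounds of Mcm7 at chr5:138165321-138165818 on the minus strand. The 6 hairpins of miR-106a-363 lie at chrX:52741693-52742567 on the minus strand. MiR-19b and miR-92a are each made from a hairpin on chromosome 14 and from another on chromosome X with an identical mature sequence, so their assays read the sum of both loci. Whether a hairpin is exonic or intronic was not taken from the gene-level annotation used here.

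The mature sequences are shown because the 10 miRNAs fall into 4 seeds, and because some differ by so few bases that their assays may not separate them. The sequences are from RefSeq, 5′ to 3′, and capitals mark the seed (bases 2 to 8), which pairs with target mRNAs. The 5 miRNAs with the miR-17 seed, and miR-106a of the same seed, read as follows.
miR-17: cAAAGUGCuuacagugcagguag
miR-20a: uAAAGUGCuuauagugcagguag
miR-20b: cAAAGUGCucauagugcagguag
miR-93: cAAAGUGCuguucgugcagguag
miR-106b: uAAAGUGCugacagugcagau
miR-106a: cAAAGUGCuaacagugcagguag

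MiR-18a has a seed of its own among the 10, which miR-18b shares, and the hairpin of miR-18a also gives the measured strand miR-18a*.
miR-18a: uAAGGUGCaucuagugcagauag
miR-18b: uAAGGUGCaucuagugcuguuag
miR-18a*: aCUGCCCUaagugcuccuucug

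The remaining seeds are that of miR-19a and miR-19b and that of miR-92a and miR-25.
miR-19a: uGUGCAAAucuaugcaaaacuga
miR-19b: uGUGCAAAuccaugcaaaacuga
miR-92a: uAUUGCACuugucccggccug
miR-25: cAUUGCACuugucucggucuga

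Counted from the 5′ end, miR-17 differs from miR-106a at a single base (U10A), and miR-19a from miR-19b at a single base as well (U11C). MiR-17 and miR-20a differ by C1U and C12U, and miR-20a and miR-20b by U1C and U10C. Over the 21 bases that both have, miR-92a and miR-25 differ by U1C, C14U and C18U. MiR-18a and miR-18b differ by A18U and A20U.

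The values were raw cycle thresholds (Ct) of quantitative real-time PCR arrays, the cycle number at which fluorescence of an assay passes its threshold, with 40 for no detection. A level is given below as the mean Ct of 5 control small RNAs in a sample minus the Ct of the miRNA, so that 1 unit is a doubling if every cycle doubles the product. Read depth does not apply to this assay, and precision is set by having 3 mice in each group. The reference Ct averaged 19.89 ± 0.46 (SD, n = 3) for EC-Dicerflox against 19.73 ± 0.39 (SD, n = 3) for EC-DicerWT mice. Markers of the wall were present in every sample, with Ct values of 14.5 to 16.5 for the smooth muscle miR-143 and miR-145 and of 17.2 to 21.3 for the endothelial miR-126-3p and miR-126-5p. The third replicates of the groups stood apart together: 22 of the 596 assays had both of them beyond the other 4 samples, on the same side and by more than 2 cycles. The same count was 9 for EC-Dicerflox replicate 1 with EC-DicerWT replicate 2, and 5 or fewer for every other pair of samples. None of the 10 miRNAs was among those 22. The study does not say whether the replicate numbers mark anything but separate mice.

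The abundance of the 10 miRNAs was graded, and in miR-17-92 the grading was not that of the order of the hairpins. MiR-19b was highest with a mean level of 1.76 over the 6 samples, which is rank 20 among the 439 miRNA assays tested. MiR-17 (-0.43, rank 49), miR-92a (-0.75, rank 54) and miR-20a (-0.86, rank 58) followed closely on each other. In the miR-106b-25 cluster the levels followed the order of the hairpins from the 5′ end, with miR-106b (-2.05), miR-93 (-2.98) and miR-25 (-3.83), and miR-19a (-4.00) and miR-20b (-4.02) came next. MiR-18a was lowest at -7.47, rank 215. Levels of different assays are set side by side as deposited, since the efficiency of each assay is not known.

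Some neighbours in this order were not separated by the spread between samples. The Ct of miR-92a was later than that of miR-17 in 4 of 6 samples, with a mean difference of 0.32 ± 0.26 cycles (SD over the 6 samples). MiR-20a was later than miR-92a in 4 of 6 samples (0.11 ± 0.18 cycles, SD), and miR-20b was later than miR-19a in 3 of 6 (0.02 ± 0.17 cycles, SD). All other neighbours kept their order in all 6 samples, including miR-25 and miR-19a, whose difference of 0.17 ± 0.14 cycles (SD) was small. The largest step was that from miR-20b to miR-18a, of 3.45 ± 0.36 cycles (SD).

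**Figure D1:**
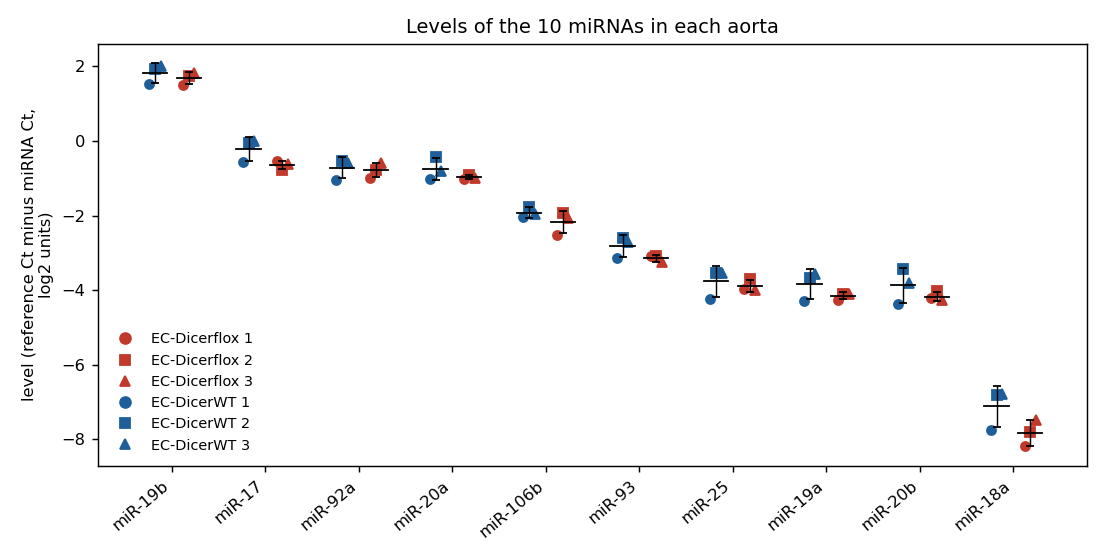
The y axis gives the level (reference Ct minus miRNA Ct, log2 units) of the 10 miRNAs in order of their mean level; points are single aortas of EC-DicerWT (blue) and EC-Dicerflox (red) mice, lines are means and bars SD (n = 3). Levels run from 1.76 for miR-19b to -7.47 for miR-18a, and within each miRNA the EC-DicerWT replicate 1 lies among or below the EC-Dicerflox aortas.

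The comparison of the groups asks whether these miRNAs differ in the aorta when ECs lack Dicer. For all 10 the mean of the EC-Dicerflox mice was below that of the EC-DicerWT mice, by 0.07 to 0.71 log2 units, and none of these differences passed the test. By limma with Benjamini-Hochberg adjustment over the 439 tested assays, 0 of the 10 had an adjusted P under 0.05 (0% of all tested assays) and 0 an unadjusted P under 0.05 (4.78% of all tested assays, 3.87% lower and 0.911% higher in EC-Dicerflox). The adjusted P was 0.99 for each of them and the unadjusted P lay between 0.11 and 0.80. The estimate was below 0 in 10 of 10, against 61.7% of all tested assays, and the median of the 10 changes was -0.28, against -0.10 over all tested assays. Among the 214 assays detected in all 6 samples at or above the mean level of miR-18a, 68.2% were below 0, with a median of -0.10. Because the 10 share primary transcripts and near-identical sequences, they are not 10 independent readings. In replicates 1 and 2 alone, without the third replicates that stood apart, 9 of the 10 estimates were below 0 and their median of -0.22 was also the median over all tested assays. In 0 of the 10 were the levels of the groups without overlap, which occurred in 9.79% of all tested assays.

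MiR-18a had the lowest estimate of the 10. Its level was -8.19, -7.80 and -7.48 in EC-Dicerflox replicates 1, 2 and 3 and -7.75, -6.80 and -6.79 in EC-DicerWT replicates 1, 2 and 3. The EC-DicerWT replicate 1 lay among the EC-Dicerflox values and the other EC-DicerWT aortas lay above all of them. This gave a log2 change of -0.71 ± 0.38 (SE; 95% interval -1.66 to 0.24), to 61.1% of the EC-DicerWT level, for which limma gave an unadjusted P of 0.11 and, after adjustment over all tested assays, an adjusted P of 0.99. The exact permutation P was 0.2, where 3 against 3 samples cannot go below 0.1. In raw Ct, with no reference subtracted, miR-18a ran from 27.63 to 27.84 in EC-Dicerflox and from 26.25 to 27.32 in EC-DicerWT aortas, without overlap, and it was the only one of the 10 for which this held (raw Ct without overlap in 9.34% of all tested assays). In 4 of 20 alternative fits miR-18a had an unadjusted limma P under 0.05: without EC-DicerWT replicate 1 (0.027, change -1.03), with U6 (0.047, change -1.09) or U6 and snoRNA135 (0.023, change -0.88) as reference, and with the replicate number as a block (0.047). The U6 value averages both array cards. On card B its Ct was 16.6 in EC-DicerWT replicate 1 and 15.1 to 15.4 in the other samples. On card A, which holds the 10 miRNAs, U6 ran from 15.6 to 15.8. The adjusted limma P of miR-18a over the 20 fits ranged from 0.79 to 0.9985.

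The 5 miRNAs with the miR-17 seed come from all 3 clusters, and their log2 changes ran from -0.43 to -0.22. MiR-17, the 5′ miRNA of the cluster, had levels of -0.55, -0.77 and -0.62 in the EC-Dicerflox and -0.58, -0.06 and 0.00 in the EC-DicerWT aortas. Its EC-Dicerflox values were tightly grouped, and only EC-DicerWT replicate 1 reached down to them. Its log2 change of -0.43 ± 0.25 (SE), to 74.2% of EC-DicerWT, had an unadjusted limma P of 0.14. MiR-20a, which has the same seed and comes from the same transcript, had levels of -1.03, -0.90 and -0.98 in the EC-Dicerflox and -1.03, -0.42 and -0.81 in the EC-DicerWT aortas. Its estimated log2 change was -0.22 ± 0.24 (SE), and EC-DicerWT replicates 2 and 3 lay above all EC-Dicerflox aortas, replicate 3 by little.

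MiR-93, the middle miRNA of the Mcm7 cluster, had levels of -3.09, -3.09 and -3.25 in the EC-Dicerflox and -3.14, -2.60 and -2.71 in the EC-DicerWT aortas. Its change of -0.33 ± 0.23 (SE) came again with EC-DicerWT replicate 1 among the EC-Dicerflox aortas. MiR-106b, its cluster mate with the same seed, had levels of -2.52, -1.94 and -2.06 in the EC-Dicerflox and -2.03, -1.76 and -1.97 in the EC-DicerWT aortas with an estimated log2 change of -0.25 ± 0.25 (SE). Here EC-Dicerflox replicate 1 was the lowest aorta, and the other samples lay within 0.30 of each other. MiR-20b, the X-linked paralog, had levels of -4.21, -4.04 and -4.28 in the EC-Dicerflox and -4.37, -3.44 and -3.80 in the EC-DicerWT aortas with an estimated log2 change of -0.30 ± 0.31 (SE).

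The miR-19 pair differed widely in level and little in change. MiR-19a had levels of -4.26, -4.10 and -4.10 in the EC-Dicerflox and -4.30, -3.66 and -3.56 in the EC-DicerWT aortas with an estimated log2 change of -0.31 ± 0.28 (SE). MiR-19b had levels of 1.49, 1.75 and 1.81 in the EC-Dicerflox and 1.53, 1.92 and 2.02 in the EC-DicerWT aortas with an estimated log2 change of -0.14 ± 0.24 (SE). In both the lowest EC-DicerWT aorta, replicate 1, lay near the lowest EC-Dicerflox aorta.

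The pair with the miR-92a seed had the smallest estimates. MiR-92a had levels of -0.98, -0.77 and -0.60 in the EC-Dicerflox and -1.04, -0.54 and -0.58 in the EC-DicerWT aortas, a log2 change of -0.07 ± 0.25 (SE; 95% interval -0.69 to 0.56), to 95.6% of EC-DicerWT. MiR-25 had levels of -3.98, -3.70 and -3.99 in the EC-Dicerflox and -4.24, -3.54 and -3.53 in the EC-DicerWT aortas, a change of -0.12 ± 0.29 (SE; 95% interval -0.84 to 0.60). The groups overlapped in both, and the sign of either estimate was not fixed: miR-92a was 0.033 without EC-Dicerflox replicate 1, 0.025 without EC-DicerWT replicate 2 and 0.0035 without EC-DicerWT replicate 3, and miR-25 was 0.05 in replicates 1 and 2 alone.

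**Figure D2:**
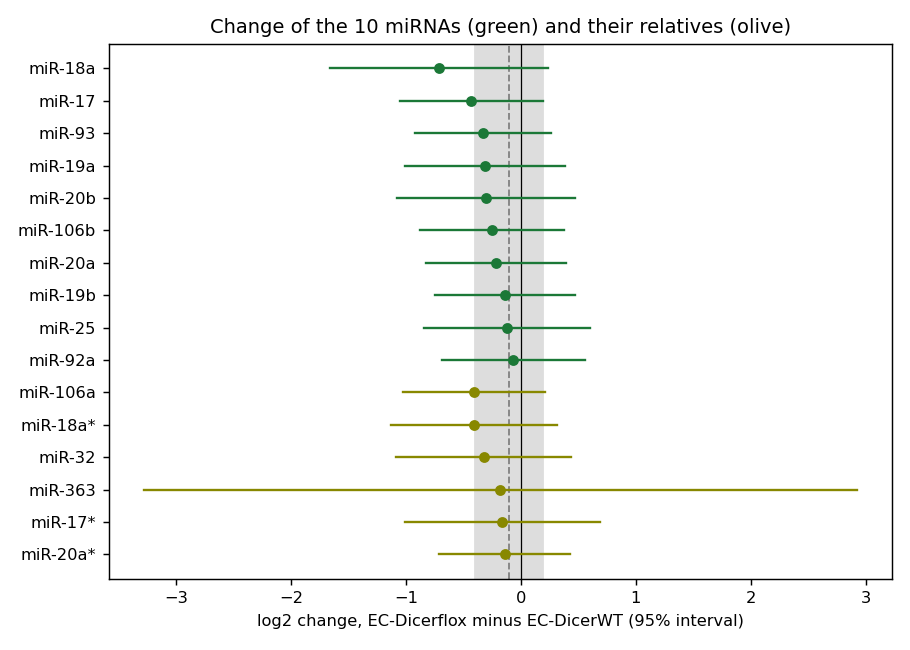
The x axis gives the log2 change (EC-Dicerflox minus EC-DicerWT) with its 95% limma interval for the 10 miRNAs (green) and for the relatives measured in all samples except miR-18b (olive); the grey band is the range between the quartiles of all 439 tested assays, from -0.40 to 0.19, with their median of -0.10 dashed. Every interval includes 0, and miR-18a (-0.71) and miR-17 (-0.43) are the green points left of the band.

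The EC-DicerWT mice did not move as a group. EC-DicerWT replicate 2 lay above all EC-Dicerflox aortas in 10 of the 10 miRNAs and replicate 3 in 9 of the 10, the exception being miR-106b. Replicate 1 lay below all EC-Dicerflox aortas in 5 of the 10 and within their range in the other 5. The main reference of replicate 1 includes its late U6 on card B (Ct 16.6, against 15.1 to 15.4 in the other samples), which raises all its levels alike. With controls taken per card, the median change of the 10 was -0.29, against -0.28 with the main reference. The counts by mouse were not redone with that reference. The spread within EC-DicerWT was wider than within EC-Dicerflox in 9 of the 10 miRNAs, again with miR-106b as the exception. The mean level of the 6 miRNAs of miR-17-92 was -2.25, -2.10 and -1.996 in the EC-Dicerflox and -2.19, -1.59 and -1.62 in the EC-DicerWT aortas. The mean level of the 3 miRNAs of miR-106b-25 was -3.20, -2.91 and -3.10 in the EC-Dicerflox and -3.14, -2.63 and -2.74 in the EC-DicerWT aortas.

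In the EC-DicerWT mice these shifts were larger than those of the profile as a whole. The median deviation of the 10 miRNAs from their own means was 0.35 in EC-DicerWT replicate 2 and 0.27 in EC-DicerWT replicate 3, where the median over the 394 miRNA assays detected in all samples was 0.02 and 0.08. In EC-DicerWT replicate 1 the 10 miRNAs deviated by -0.25 and all detected miRNAs by 0.12. Over the EC-Dicerflox replicates 1, 2 and 3 the median deviations of the 10 were -0.21, -0.03 and -0.11, and those of all detected miRNAs -0.16, -0.12 and 0.10. The median change of the 10 was -0.13 without EC-DicerWT replicate 2, where that over all tested assays was -0.11. Without EC-DicerWT replicate 1 these medians were -0.42 and -0.08, so the size of the group difference rested on single mice. Among marker lists, the 6 leukocyte miRNAs, all detected in all samples (Ct 18.8 to 27.6), had mean deviations of -0.34, 0.16 and -0.04 in the EC-Dicerflox and -0.17, 0.43 and -0.04 in the EC-DicerWT aortas. They were thus high in EC-DicerWT replicate 2 and not in replicate 3. Their mean was also lower in EC-Dicerflox, with log2 changes from -0.34 (miR-155) to 0.07 (miR-150). All but miR-150 were below 0, as were 61.7% of all tested assays. The erythrocyte markers miR-451 and miR-486, found for 2 of 3 listed (Ct 19.4 to 21.7), had mean deviations of -0.03, 0.32 and -0.24 in the EC-Dicerflox and -0.48, 0.17 and 0.26 in the EC-DicerWT aortas. Within EC-DicerWT they were low in replicate 1 and high in replicates 2 and 3, as the 10 miRNAs were. Unlike the 10, they were highest of all in EC-Dicerflox replicate 2. Their log2 changes were 0.05 and 0.02, where those of the 10 were all below 0. The striated muscle markers detected in all samples (4 of 6 listed) had mean deviations of -0.15, -0.42 and 0.01 in the EC-Dicerflox and 0.21, -0.21 and 0.57 in the EC-DicerWT aortas, with a lower mean in EC-Dicerflox as for the 10 miRNAs but with EC-DicerWT replicate 2 low. Among them miR-208 had a log2 change of -1.65 (unadjusted limma P of 0.024, adjusted P of 0.98), and miR-1, miR-133a and miR-133b had estimates of -0.15 to 0.23. The endothelial miR-126-3p and miR-126-5p had mean deviations of -0.50, 0.19 and 0.40 in the EC-Dicerflox and 0.02, -0.26 and 0.16 in the EC-DicerWT aortas, and the smooth muscle miR-143 and miR-145 of -0.23, -0.08 and 0.39 and of -0.03, -0.25 and 0.19. Neither pair was high in EC-DicerWT replicate 2. The part of any of these cells in the levels of the 10 miRNAs was not tested.

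**Figure D3:**
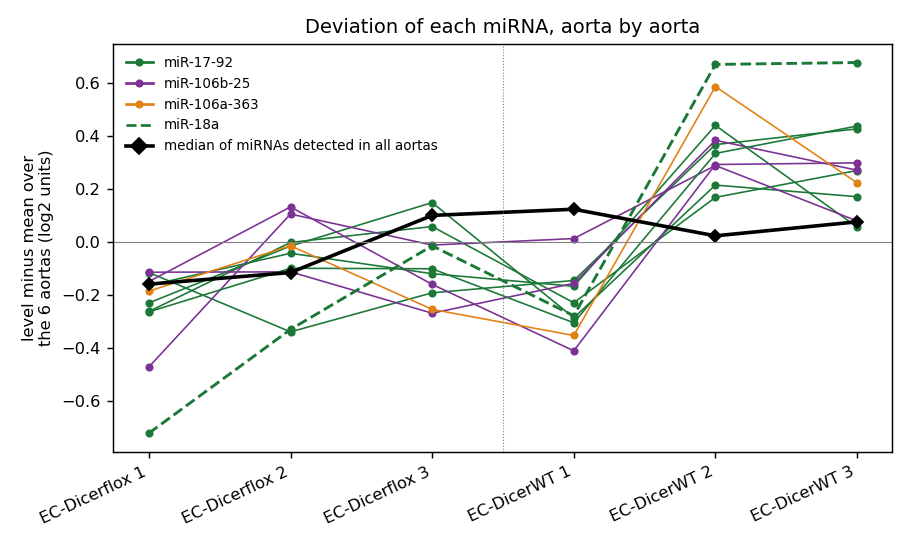
The y axis gives the level of each miRNA minus its mean over the 6 aortas (log2 units), with 1 line per miRNA coloured by cluster (miR-18a dashed) and the median of the 394 miRNAs detected in all aortas in black; lines join the same miRNA and imply no order of the mice. The 10 lines lie above 0 in EC-DicerWT replicates 2 and 3 (medians 0.35 and 0.27), where the black line is at 0.02 and 0.08. In replicate 3 miR-20a (0.06) and miR-106b (0.08) lie close to the black line.

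Differences between miRNAs within a sample need no reference RNA. Over the 45 pairs among the 10 miRNAs, the SD of the Ct difference across the 6 samples ran from 0.07 to 0.42 cycles with a median of 0.20. The tightest pair was miR-19b and miR-92a, neighbours at the 3′ end of the cluster that do not share a seed and are both also made on chromosome X: miR-92a came 2.51 cycles later, within 2.42 and 2.61 in all samples. The widest pairs all held miR-18a, up to 0.42 cycles with miR-25.

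The 7 pairs set for comparison covered shared seeds within and between clusters, and each was compared between the groups by an exact two-sided permutation test, with adjustment over these and 3 pairs of strands. The Ct of miR-19b minus that of miR-19a was -5.75, -5.85 and -5.91 cycles in the EC-Dicerflox and -5.83, -5.59 and -5.58 cycles in the EC-DicerWT aortas, so that miR-19b was detected more than 5 cycles earlier in every mouse. The group difference was -0.17 cycles (exact permutation P of 0.2, adjusted P of 0.89), the smallest P of the 10 pairs. Between the seed-sharing miR-92a and miR-25 the difference was 3.10 ± 0.25 cycles for EC-Dicerflox and 3.05 ± 0.13 cycles for EC-DicerWT mice (each SD over 3), with an exact permutation P of 0.9. MiR-20b came 3.20 ± 0.08 cycles after miR-20a for EC-Dicerflox and 3.12 ± 0.20 cycles for EC-DicerWT mice (each SD over 3), with an exact permutation P of 0.6.

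For miR-17 against its paralog miR-106b the difference was 1.53 ± 0.41 cycles for EC-Dicerflox and 1.71 ± 0.25 cycles for EC-DicerWT mice (each SD over 3), with an exact permutation P of 0.5. MiR-20a came 0.32 ± 0.18 cycles after miR-17 for EC-Dicerflox and 0.54 ± 0.23 cycles for EC-DicerWT mice (each SD over 3), with an exact permutation P of 0.5. MiR-93 came 0.97 ± 0.34 cycles after miR-106b for EC-Dicerflox and 0.89 ± 0.19 cycles for EC-DicerWT mice (each SD over 3), with an exact permutation P of 0.8. MiR-18a came 7.18 ± 0.41 cycles after miR-17 for EC-Dicerflox and 6.90 ± 0.24 cycles for EC-DicerWT mice (each SD over 3), and this difference of 0.28 cycles was within the spread between mice (exact permutation P of 0.5). In none of the 7 pairs were the groups without overlap.

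**Figure D4:**
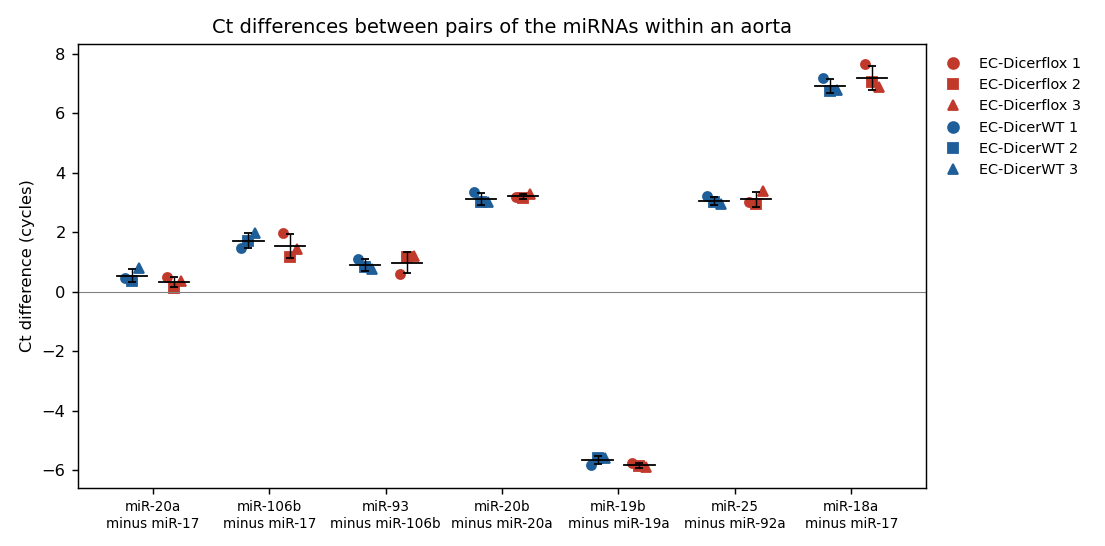
The y axis gives the Ct of the first-named miRNA minus that of the second (cycles) for 7 pairs; points are single aortas of EC-DicerWT (blue) and EC-Dicerflox (red) mice, lines are means and bars SD (n = 3). The groups overlap in every pair, and the mean offsets run from -5.75 cycles for miR-19b minus miR-19a over 0.43 cycles for miR-20a minus miR-17 to 7.04 cycles for miR-18a minus miR-17.

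Each hairpin gives 2 strands, of which the one marked with an asterisk is as a rule removed when the other enters Argonaute. For 3 of the miRNAs the asterisk strand was also detected in all samples, on the other array card. MiR-17* came 6.90 ± 0.53 cycles (SD over the 6 samples) after miR-17, and miR-20a* came 6.67 ± 0.33 cycles (SD) after miR-20a. MiR-18a* came 1.14 ± 0.58 cycles (SD) after miR-18a, with values of 0.39, 0.98 and 1.58 in the EC-Dicerflox and 0.69, 1.22 and 1.96 in the EC-DicerWT aortas. The strands of the miR-18a hairpin were thus near each other in every sample, at Ct values of 26.2 to 27.8 for miR-18a and 27.5 to 29.4 for miR-18a*, while the others differed by over 6 cycles. Card, assay and strand cannot be told apart in these offsets. The offsets of the groups overlapped, with exact permutation P values of 0.7 for miR-17, 0.6 for miR-18a and 0.8 for miR-20a.

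Of 19 relatives listed (asterisk strands, the other miRNAs of miR-106a-363 and those with the miR-92a seed elsewhere), 11 were in the table and 8 were tested. None of the 8 had an adjusted limma P under 0.05 (0% of all tested assays), and 0 had an unadjusted one under 0.05 (4.78% of all tested assays). Of their estimates 6 were below 0 and 2 above, where 61.7% of all tested assays were below 0, and the median was -0.17 against -0.10 over all tested assays. MiR-106a had Ct values of 19.84, 20.49 and 20.99 in the EC-Dicerflox and 20.06, 19.37 and 20.19 in the EC-DicerWT aortas, and those of miR-17 were 19.99, 20.64 and 20.98 and 20.15, 19.51 and 20.17. The assays of these miRNAs, which differ by U10A alone, came within 0.15 cycles of each other in every sample (mean difference -0.08 ± 0.08 cycles, SD), and how far each assay detects the other miRNA was not tested. The log2 change of miR-106a was estimated at -0.41 ± 0.25 (SE; adjusted limma P of 0.99), close to the -0.43 of miR-17.

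MiR-18b and miR-363, made on chromosome X, varied far more between samples than miR-18a and miR-92a. MiR-18b had Ct values of 37.52, 35.04 and 27.90 in the EC-Dicerflox and 38.01, 29.63 and 39.41 in the EC-DicerWT aortas, a range of over 11 cycles where miR-18a ranged over less than 2. MiR-363, which carries the miR-92a seed, had Ct values of 30.72, 31.36 and 29.94 in the EC-Dicerflox and 31.22, 27.56 and 32.23 in the EC-DicerWT aortas. The same mice, EC-Dicerflox replicate 3 and EC-DicerWT replicate 2, were the earliest for both. In these mice alone miR-19a* (34.43 and 36.28) was detected, and miR-20b* was detected only in EC-DicerWT replicate 2 (37.69). MiR-92a* was detected in 5 samples, at 30.21 in EC-DicerWT replicate 2 and 32.66 or later in the others. MiR-20b, from the same X-linked cluster as miR-18b and miR-363, ranged only from 22.88 to 24.63. MiR-32 lay between 30.37 and 31.73, and miR-367 was detected in no sample.

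**Figure D5:**
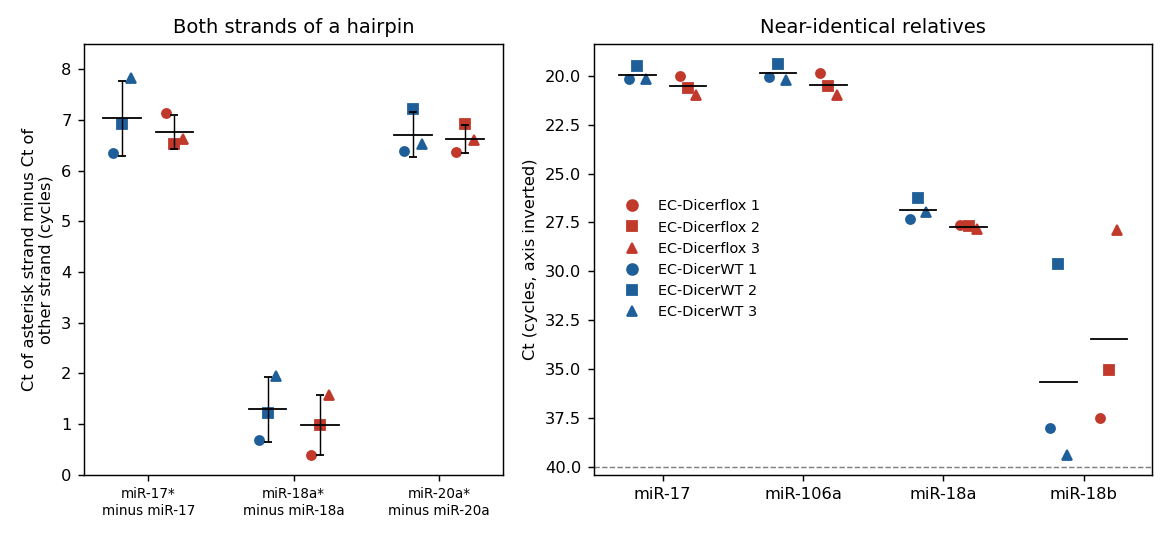
Left, Ct of the asterisk strand minus that of the other strand (cycles; points are aortas, lines means, bars SD, n = 3) for 3 hairpins: about 7 cycles for miR-17 and miR-20a and 1.14 on average for miR-18a. Right, Ct (cycles, axis inverted, dashed line at the limit of 40; lines are means) of miR-17, miR-106a, miR-18a and miR-18b: miR-17 and miR-106a have nearly the same values, while miR-18b runs from 27.90 to 39.41.

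The miRNAs outside these families that followed the clusters most closely across the 6 samples were found by the SD of their Ct minus the mean Ct of the cluster, over 377 candidates detected in all samples. For miR-17-92 they were miR-34b-3p (SD of 0.16 cycles), miR-181c (0.16) and miR-221 (0.20), against a median SD of 0.52 over the candidates. For miR-106b-25 they were miR-7b (0.14), miR-335-3p (0.17) and miR-34b-3p (0.17), against a median of 0.52. These miRNAs were picked for their small SD, taken against the mean of a cluster. Their SD values are therefore not comparable with those of the unselected pairs of single assays among the 10 miRNAs. The group change of these 5 miRNAs ran from -0.42 for miR-181c to -0.07 for miR-335-3p, with adjusted limma P values of 0.99.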

How the data were processed

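Per the study's methods, RNA of 6 aortas went through multiplexed reverse transcription and preamplification (rodent pools) before TaqMan array cards were run. The deposited values are the authors' raw Ct, with no other normalisation and no pooling; how baseline and threshold were set is not given in the sources used here. Cards were told apart by assay number, and all 10 miRNAs were on card A. Levels used the mean of snoRNA135, snoRNA202, U6, U87 and Y1, cards averaged. Assays with Ct under 40 in at least 3 samples (439 of 596) entered limma 3.58.1 in R 4.3.3 (lmFit, eBayes, two-sided, Benjamini-Hochberg), without a replicate block; wells at 40 were kept. Single values were compared over the 20 assignments of samples by exact permutation in scipy 1.17.1. The fit was tested on data simulated with the measured means and SDs. With no change, 5.1% of assays had an unadjusted limma P under 0.05. With 100 assays lowered by 1 log2 unit, 54.1% of those did, so smaller changes would often be missed. Members, lists and tests were chosen with earlier results of these data known. All 10 members, the relatives and the 3 closest other miRNAs per cluster were named. Table names without and with an asterisk were matched to the mature arms in RefSeq (GRCm38.p6), used for names, sequences and positions. Alternatives were other references, filters, limits, variance models, a batch term for the third replicates, a replicate block and leaving out each mouse.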

Additional observations from a re-analysis of the deposited data

Results flagged for a closer look

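An assay of a plant miRNA, which mice lack and which enters no comparison, had a Ct of 39.776 on card A in EC-Dicerflox replicate 1 and was undetected in the other 11 wells of its kind. It drew attention as a signal outside the measured miRNAs. All Ct values of the 10 miRNAs described here lay between 17.52 and 27.84, far from it.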

How the results depend on the processing

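No miRNA of the 10 had an adjusted limma P under 0.05 in any of the 20 alternative fits. Of the alternative values, 349 kept direction and side of the adjusted threshold, against 16 that turned sign and 5 other shifts. The 349 include the changes of miR-18a in the 4 fits with an unadjusted limma P under 0.05. They also include pair differences, all from fewer mice than the main test. Their exact permutation P could not go below 0.2 with a mouse left out, or below 0.33 in replicates 1 and 2 alone. Of the 10, the number with an unadjusted limma P under 0.05 was 1 (miR-18a) with U6, with U6 and snoRNA135, and with the replicate block. It ran from 0 to 1 when each mouse was left out. The median change of the 10 was -0.66 with U6, where the median of all tested assays was -0.48 against -0.10 with the main reference. A change of reference moves every assay alike, so the difference between these medians, -0.18, is the same with either by construction. On card B the Ct of U6 was 16.6 in EC-DicerWT replicate 1 and 15.1 to 15.4 in the other samples. As part of the control mean, that well also enters the main reference. The median change of the 10 ran from -0.42 to -0.13 when each mouse was left out, and the number of lower estimates from 8 to 10. Why U6 came late in that well, and what underlies the shifts when a mouse was left out, was not tested. Some estimates changed sign. When each mouse was left out, miR-92a ran from -0.22 to 0.033 and miR-25 from -0.35 to 0.00013, and miR-25 was 0.051 in replicates 1 and 2 alone. Among the pair differences (EC-Dicerflox minus EC-DicerWT, cycles), leaving out each mouse gave -0.031 to 0.28 for miR-93 minus miR-106b, -0.087 to 0.14 for miR-25 minus miR-92a, -0.61 to 0.13 for miR-17* minus miR-17, -0.60 to 0.031 for miR-18a* minus miR-18a and -0.24 to 0.17 for miR-20a* minus miR-20a. In replicates 1 and 2 alone miR-93 minus miR-106b was -0.11, miR-20b minus miR-20a was -0.023, miR-25 minus miR-92a was -0.14 and miR-17* minus miR-17 was 0.20. Deviations of same-numbered mice correlated across miRNAs at 0.15, -0.06 and 0.31, which was not taken as pairing, and the replicate block changed no adjusted call. With 3 mice a group the 95% intervals of the 10 changes reached from -1.66 to 0.60.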
